A study of Arabidopsis thaliana with 36 samples.

Results

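The genes described are the members of the phosphate exporter family PHO1 (AT3G23430), PHO1;H1 (AT1G68740), PHO1;H2 (AT2G03260), PHO1;H3 (AT1G14040), PHO1;H4 (AT4G25350, also named SHB1) and PHO1;H10 (AT1G69480) and the vacuolar phosphate transporters PHT5;1 (AT1G63010), PHT5;2 (AT4G11810) and PHT5;3 (AT4G22990) of Arabidopsis thaliana. They were chosen by locus and number 9 of the 27444 genes in the expression table. RNA was sequenced from roots and mature rosette leaves of plants in hydroponic culture. The ppsr1 T-DNA knockout (KO) and 1 representative AtPPSR1 overexpression line (OE) were set against the wild type Col-0 (WT), and all plants had 200 µM phosphate (Pi) for 4 weeks. For the last 24 h the solution held 0 µM or 200 µM Pi. Genotype, Pi level and organ made 12 groups of 3 libraries, 36 in all, which the labels call independent biological replicates. The promoter of the overexpression construct is not given in the labels, boxes held 4 plants, and the level of PPSR1 itself was not analysed here, so the genotypes could not be checked.

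Phosphate taken up at the root surface has to cross the root and be released into the xylem before it reaches the shoot. PHO1 exports Pi for this loading step in the cells around the xylem, and its relatives share its SPX domain, which senses inositol pyrophosphates, and its EXS domain. PHT5 proteins, also with an SPX domain, move Pi from the cytosol into the vacuole, where it is stored. The level of PHO1 protein is lowered by the ubiquitin-conjugating enzyme PHO2, so that transcript levels report only 1 layer of its control.

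Levels are FPKM, fragments per kilobase of coding sequence scaled to the library's total, as deposited, and a change is a log2 change of FPKM + 1 with its standard error (SE). Adjusted p-values are from limma with Benjamini-Hochberg adjustment over all genes of a fit, two-sided, and passing means an adjusted p under 0.05. A library held between 2070000 and 13200000 reads, with a median of 10850000 in leaf and 6240000 in root. In the leaf libraries of OE at 0 µM replicate 1, WT at 0 µM replicate 1 and WT at 200 µM replicate 2, and in the root library of WT at 200 µM replicate 2, genes with over 4000 coding bases were low, by more than 0.5 on the log2 scale against the other libraries of the organ. All 9 members have coding sequences shorter than that, between 2103 and 2442 bases, but the levels of several moved with the long-gene level, the median log2 level of those genes in a library relative to its organ. Over the 18 leaf libraries r between log2(FPKM + 1) and the long-gene level was 0.763 for PHO1, 0.723 for PHT5;3, 0.642 for PHT5;1 and 0.619 for PHO1;H1, and over the 18 root libraries it was 0.731 for PHO1;H3 and 0.562 for PHO1;H1, as descriptions. The long-gene level also differed with Pi, with a median of 0.21 at 0 µM and -0.12 at 200 µM in leaf and 0.05 at 0 µM and -0.08 at 200 µM in root. Leaf and root markers separated the organs: 5 leaf mesophyll markers summed to between 595 and 3560 FPKM in root and between 61388 and 114467 FPKM in leaf, and 3 endodermis markers to between 263 and 753 FPKM in root and at most 6.87 FPKM in leaf. The leaf library with the highest sum of 4 root epidermis markers, 11.3 FPKM, was of WT at 200 µM.

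By RefSeq gene models on TAIR10.1, PHO1 lies on chromosome 3 from 8387398 to 8393467 on the minus strand, with 15 coding exons. PHO1;H1 lies on chromosome 1 from 25812449 to 25816983 on the minus strand, with 12 coding exons. Of the 6 PHO1 family members AT2G03260 and AT1G14040 were the closest pair, with 76.9% identical bases over 2406 aligned coding bases. AT2G03260 lies on chromosome 2 from 987934 to 992332, minus strand, and AT1G14040 on chromosome 1 from 4810115 to 4814724, plus strand. SHB1 lies on chromosome 4 from 12962965 to 12966629 and AT1G69480 on chromosome 1 from 26113990 to 26117955, both on the minus strand. Of the vacuolar transporters, AT1G63010 lies on chromosome 1 from 23347561 to 23352831 on the minus strand, AT4G11810 on chromosome 4 from 7104510 to 7108619 on the plus strand and AT4G22990 on chromosome 4 from 12048160 to 12051891 on the minus strand. The last 2 shared 84.8% of 2100 aligned coding bases, the highest identity among the members. Of the 31-base words in a member's coding sequence, at most 2.22% occurred in another gene, so reads that could belong to a second locus were few.

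PHR1, the transcription factor that switches on many genes in Pi shortage, binds the element P1BS, here searched as GNATATNC, which reads the same on both strands. Within 1000 bases before the annotated start it occurred in 2 of the 9 members, against 20.25% of 27443 genes. Between the start and the ATG it occurred in another 2, with 409 and 936 bases in that stretch, against 3.47% of genes, whose median stretch was 162 bases. Of the 4203 genes with 400 to 1000 bases there 8.26% held it, and 4 members fall in that range. This second search was added after the first, in which PHO1;H1 had 0 matches. Of the PHT1 uptake transporters 7 of 9 held it before the start, and of the other PHO1 family loci 0 of 5. The 4 matches in members are shown because the first printed belongs to the member whose level followed Pi, with the 8 bases of the match in capitals and 11 bases on each side, in the direction of the gene, from RefSeq TAIR10.1. In the order printed, they lie 79 bases after the start in a leader exon (chr1:25816887-25816916), 436 bases after it in a leader intron or at its border (chr4:7104934-7104963), 937 bases before it (chr1:4809167-4809196) and 804 bases before it (chr4:12967415-12967444).
PHO1;H1: ggaagcacggtGGATATACactggcgagaa
PHT5;2: tggaatctgttGTATATGCtgagaaaacac
PHO1;H3: atatacaaacaGTATATGCctaacatttaa
PHO1;H4: attggtccgtaGAATATACaatgcccaaat
The first 2 lie in transcribed sequence and the last 2 before the start. A match is a string of letters and was not tested for binding.

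In root, PHO1 stood far above every other member, and in leaf the vacuolar transporters PHT5;1 and PHT5;3 were the most abundant members. Over 18 root libraries PHO1 averaged 219 ± 43.0 FPKM (SD, n = 18), ahead of PHT5;1 at 45.8 ± 6.73, PHO1;H3 at 21.2 ± 3.75, PHO1;H1 at 8.89 ± 4.53, PHO1;H2 at 4.42 ± 1.24 and SHB1 at 2.87 ± 1.05. The other 3 members were below 1 FPKM on average in root. The ranges of the leading 3 did not overlap, whereas from the third downward each overlapped the next. Over 18 leaf libraries PHT5;1 averaged 21 ± 2.58 FPKM and PHT5;3 17.7 ± 4.13 FPKM, with overlapping ranges. They were followed by PHO1;H1 at 5.86 ± 4.97 and PHO1 at 3.54 ± 1.59, which also overlapped. The other 5 members were below 1 FPKM on average in leaf. PHO1 made up a median of 85.4% of the summed FPKM of the 6 PHO1 family members in root (lowest 78.0%, highest 91.4%). Its median share of that sum in leaf was 32% (lowest 21.7%, highest 67.1%). In leaf its relative PHO1;H1 held a median of 53.9% of that sum. Of the summed FPKM of 11 PHO1 family loci PHO1 made up a median of 77.9% in root and 17.3% in leaf. AT1G35350, a family locus outside the 6, averaged 6.09 FPKM in leaf.

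**Figure D1:**
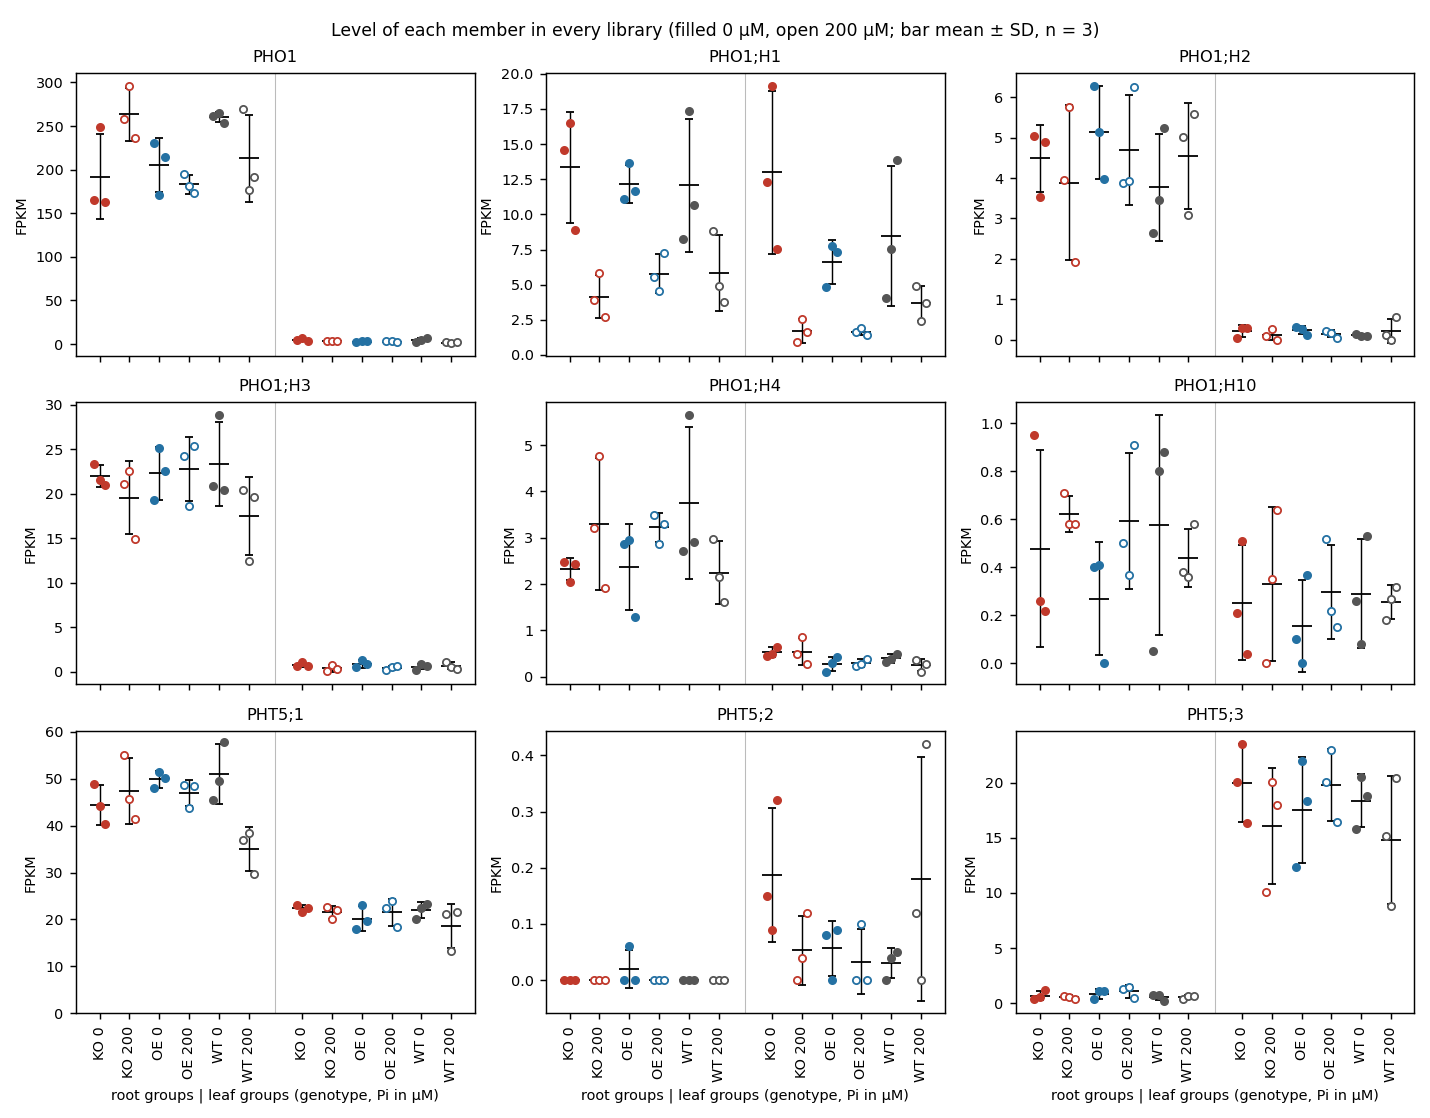
FPKM (y axis, linear) of each member in every library, with root groups left and leaf groups right of the vertical line. Filled points are 0 µM and open points 200 µM, with mean ± SD (n = 3). PHO1 lies between 163 and 296 FPKM in root and between 1.64 and 7.35 FPKM in leaf, PHT5;3 shows the opposite distribution, and PHO1;H1 is the member whose filled points lie above the open ones in most pairs.

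Root against leaf was tested for the 7 members that averaged 1 FPKM or more in all 36 libraries together. All 7 passed, 6 higher in root and 1 lower. The background was dense, since 67.8% of 19327 genes passed as higher in root and 22.0% as lower, so passing did not set the members apart. PHO1 had the largest difference among them, 5.65 ± 0.09 (SE) on the log2 scale (adjusted p 1.89e-30, limma). PHO1;H3, whose product limits Pi transfer to the shoot under zinc shortage, differed by 3.77 ± 0.10, PHO1;H2 by 2.19 ± 0.10 and SHB1, also known from light signalling, by 1.45 ± 0.10. PHT5;3 was the member higher in leaf, at -3.44 ± 0.12 (adjusted p 1.82e-22). The values did not overlap between the organs for any of these 5 members, nor for 40.5% of all genes. All of them except PHO1 reached the 1 FPKM level through 1 organ alone, so a difference was built into their being tested.

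PHT5;1 was higher in root by 1.08 ± 0.07 and PHO1;H1 by 0.70 ± 0.15 (adjusted p 6.14e-05), beside a median of all genes of 0.76. Relative to that median PHT5;1 lay at 0.325 and PHO1;H1 at -0.0552. Scaled by median of ratios, that median moved to 0.15, PHT5;1 to 0.42 ± 0.07 (adjusted p 1.09e-06) and PHO1;H1 to 0.14 ± 0.13 (adjusted p 0.327), so that the last call ended, while the other 6 kept theirs. With that scaling 9034 genes passed as higher and 6904 as lower, against 13100 and 4259 on the deposited scale. The 5 root stele markers, of the tissue where PHO1 loads the xylem, summed to between 273 and 547 FPKM in root and between 23.7 and 45.2 FPKM in leaf. In whole organs a difference in the number of cells of a type and a difference in RNA per cell cannot be told apart, and the part of the stele in these differences was not tested.

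**Figure D2:**
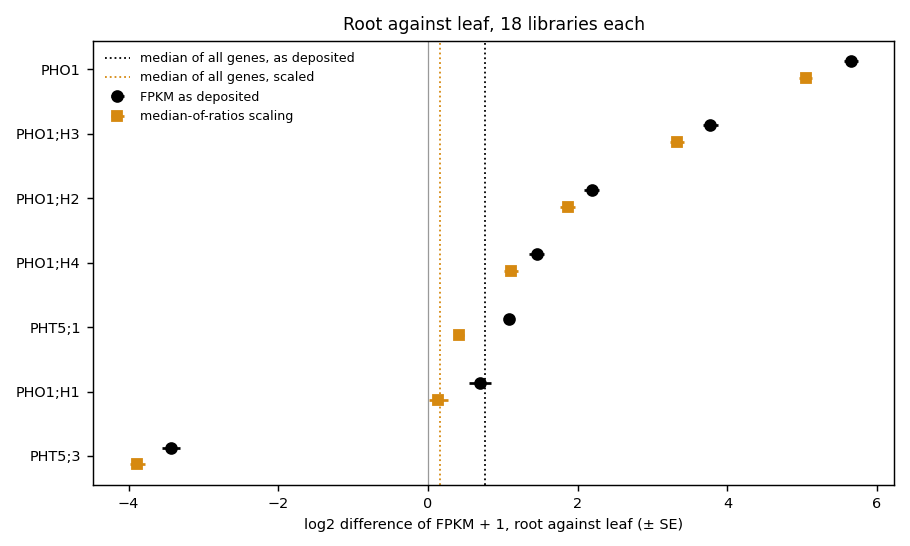
Log2 difference of FPKM + 1 between root and leaf for the 7 tested members (x axis, ± SE), with FPKM as deposited and after median-of-ratios scaling. Dotted lines mark the median of all genes, 0.76 and 0.15. PHO1 lies at 5.65 and PHT5;3 at -3.44, while PHO1;H1 lies beside the median under both.

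PHO1;H1, the relative that can share xylem loading with PHO1, was the member that changed with Pi. It had 14.6, 16.5 and 8.89 FPKM in KO roots at 0 µM, against 3.91, 5.81 and 2.73 FPKM at 200 µM. In OE roots it had 11.1, 13.7 and 11.7 FPKM at 0 µM, against 5.55, 4.57 and 7.25 FPKM at 200 µM. In WT roots it had 8.22, 17.4 and 10.6 FPKM at 0 µM, against 8.85, 4.87 and 3.76 FPKM at 200 µM. The groups lay apart in KO and OE, as did those of 26.2% and 15.2% of all genes, and in WT replicate 1 at 200 µM exceeded replicate 1 at 0 µM.

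In KO leaves PHO1;H1 had 12.3, 19.1 and 7.55 FPKM at 0 µM, against 0.91, 2.59 and 1.64 FPKM at 200 µM. The 0.91 came from replicate 1, with 9488 genes at 0 against 7872 and 8003 in replicates 2 and 3. Its r with them over all genes was 0.929 and 0.923, against 0.981 between those 2. Without this library PHO1;H1 still passed in KO leaf. In OE leaves the values were 4.84, 7.73 and 7.31 FPKM at 0 µM, against 1.64, 1.94 and 1.4 FPKM at 200 µM. In WT leaves they were 4.05, 7.54 and 13.9 FPKM at 0 µM, against 4.93, 2.41 and 3.69 FPKM at 200 µM. Again the groups lay apart in KO and OE, against 22.5% and 17.7% of all genes, and overlapped in WT, where the low value at 0 µM came from a library with low long genes. In KO leaf the long-gene level also lay apart, from 0.06 to 0.52 at 0 µM and from -0.47 to 0.04 at 200 µM. Behind these leaf values stood between 19.1 and 455 reads per library.

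Averaged over the 3 genotypes, PHO1;H1 rose at 0 µM by 1.13 ± 0.18 in root (adjusted p 0.000667, limma) and by 1.58 ± 0.22 in leaf (adjusted p 0.000743). It was 1 of 6 members tested in root and 1 of 4 in leaf, and the only one to pass in either direction. In root 4.85% of 19166 genes passed as higher and 3.82% as lower, and in leaf 1.5% and 0.546% of 16489 genes. Median-of-ratios scaling changed the split in root to 440 higher and 1055 lower genes, against 930 and 732 on the deposited scale. The tested members had a median change of 0.11 in root and 0.32 in leaf, beside 0.09 and 0.05 over all genes. The rise kept its call in root and in leaf under all 23 other settings and left-out libraries tried in each, one of which left out the libraries with low long genes. The part of the long-gene level among the remaining libraries was not tested.

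Within single genotypes PHO1;H1 passed in KO alone, where it rose by 1.48 ± 0.31 in root (adjusted p 0.0134) and by 2.33 ± 0.39 in leaf (adjusted p 0.00462). The backgrounds in KO were 3.53% of genes in root and 1.10% in leaf. In OE the change was 0.97 ± 0.31 in root (adjusted p 0.461) and 1.5 ± 0.39 in leaf (adjusted p 0.0997), where 0.235% and 0.801% of genes passed. In WT it was 0.95 ± 0.31 in root (adjusted p 0.112) and 0.92 ± 0.39 in leaf (adjusted p 0.746), where 1.96% and 0.00606% of genes passed. No other member passed in any of these 6 comparisons.

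These single-genotype calls were near the threshold. The call in KO root ended without KO at 200 µM replicate 3 (adjusted p 0.0744), KO at 0 µM replicate 1 (0.0599) or KO at 0 µM replicate 2 (0.0526), the last 2 being shallow libraries. The call in KO leaf ended when the 2 groups were fitted alone (adjusted p 0.062), while OE leaf then passed (0.0331). OE leaf also passed without the libraries with low long genes (0.0276). In OE leaf 166 genes passed as higher and 44 as lower with groups alone, and 338 and 67 without those libraries. Without WT root at 200 µM replicate 1 the adjusted p of PHO1;H1 in WT root was 0.0235. The long-gene level of that replicate was -0.0045, while replicates 2 and 3 of its group, which stayed in, had -1.133 and -0.4598. In the authors' deposited table the 0 µM over 200 µM ratio of PHO1;H1 was 7.6 in KO leaf (adjusted p 3.96e-08), 3.99 in OE leaf (1.06e-07), 3.21 in KO root (4.9e-05) and 2.1 in OE root (0.00515). For WT the authors' deposited table gives adjusted p-values of 0.671 in leaf and 0.291 in root.

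The larger fitted change of PHO1;H1 in KO did not pass as a difference between genotypes. The Pi response in KO leaf minus that in WT leaf was 1.41 ± 0.55 with a 95% interval from 0.25 to 2.56 (p 0.0198, adjusted p 0.411), and in root 0.53 ± 0.44 (adjusted p 0.648). For OE minus WT it was 0.58 ± 0.55 in leaf (adjusted p 0.919) and 0.02 ± 0.44 in root (adjusted p 0.995). Of the 4 members tested in leaf and 6 in root, 0 passed in these difference tests by limma, with unadjusted p under 0.05 in 2 of 8 leaf tests and 2 of 12 root tests. Among all genes 0.127% passed for KO and 0.352% for OE in leaf, and 0% for both in root. An unadjusted p under 0.05 was found for 9.26% of genes in KO and 8.24% in OE in leaf, and in root for 11.7% (2245 genes) and 4.82% (923 genes). Nor did the Pi response of any of 7 members pass as different between root and leaf within a genotype, with 0 of 21 tests passing. Of these members PHO1;H2, PHO1;H3 and SHB1 averaged below 1 FPKM in leaf, and PHT5;3 did in root. On log2(FPKM + 1) their changes in that organ are held near 0, so their tests hardly compared the organs. The 1 test with an unadjusted p under 0.05 was PHO1 in KO, at -0.92 ± 0.33 (limma, p 0.00867, adjusted p 0.203). The backgrounds were 1.24% in KO, 0.238% in OE and 0.0776% in WT. An unadjusted p under 0.05 was found for 12.8%, 6.42% and 8.57% of genes. For PHO1;H1 root minus leaf was -0.85 ± 0.51 in KO, -0.53 ± 0.51 in OE and 0.03 ± 0.51 in WT.

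**Figure D3:**
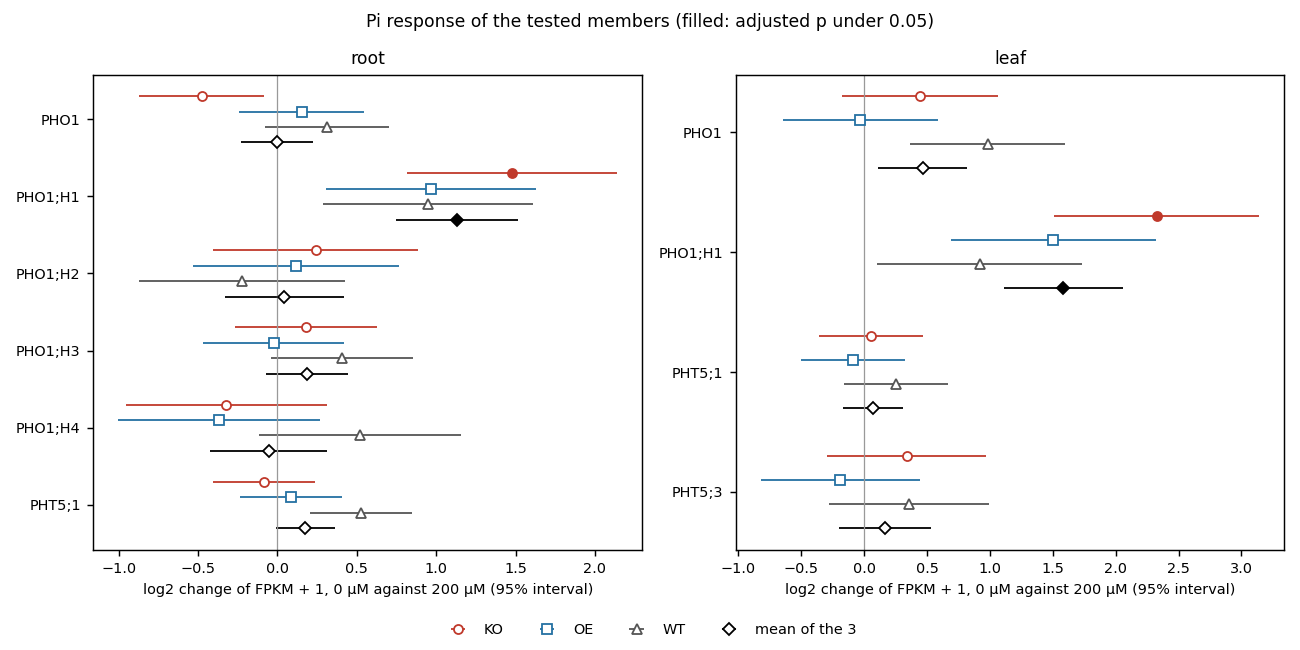
Log2 change of FPKM + 1 at 0 µM against 200 µM (x axis, 95% interval) for the members tested in root (left) and leaf (right), in each genotype and averaged over the 3. Filled symbols passed at an adjusted p under 0.05. All filled symbols belong to PHO1;H1, in KO and in the average, at 1.48 and 1.13 in root and 2.33 and 1.58 in leaf.

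PHO1 itself did not pass for Pi in either organ. In KO roots it had 165, 248 and 163 FPKM at 0 µM, against 258, 296 and 236 FPKM at 200 µM. In OE roots it had 231, 171 and 214 FPKM at 0 µM, against 195, 181 and 174 FPKM at 200 µM. In WT roots it had 261, 265 and 254 FPKM at 0 µM, against 269, 177 and 192 FPKM at 200 µM. The groups overlapped in all 3 genotypes. The changes were -0.48 ± 0.19 in KO (adjusted p 0.166), 0.15 ± 0.19 in OE and 0.31 ± 0.19 in WT, and the average was -0.0037 ± 0.11 with a 95% interval from -0.23 to 0.22. For KO root the authors' deposited table gives a ratio of 0.73 and an adjusted p of 0.0532. The response in KO minus that in WT was -0.79 ± 0.26 (p 0.00807, adjusted p 0.328).

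In leaf PHO1 was low and its highest values were at 0 µM. In KO leaves it had 4.57, 7.35 and 3.83 FPKM at 0 µM, against 3.16, 3.30 and 3.99 FPKM at 200 µM. In OE leaves it had 1.87, 3.65 and 3.34 FPKM at 0 µM, against 3.07, 3.11 and 2.69 FPKM at 200 µM. In WT leaves it had 2.75, 4.62 and 6.98 FPKM at 0 µM, against 1.85, 1.64 and 1.91 FPKM at 200 µM. The WT groups lay apart, against 10.0% of all genes, and those of both lines overlapped. The change was 0.44 ± 0.29 in KO, -0.03 ± 0.29 in OE, 0.98 ± 0.29 in WT (p 0.00379, adjusted p 0.635) and 0.46 ± 0.17 on average (adjusted p 0.188). The average passed, at 0.62 ± 0.15 (limma, adjusted p 0.0194), without the 3 leaf libraries with low long genes. Without WT leaf at 0 µM replicate 1 alone its adjusted p was 0.0496. Without those 3 libraries 1597 of 16489 genes passed as higher and 612 as lower, against 247 and 90 with all libraries. The WT leaf libraries then left had long-gene levels of 0.53 and 0.89 at 0 µM, and 0.04 and -0.16 at 200 µM. The part of the long-gene level in these calls was not tested. The sum of the 5 stele markers in leaf ranged from 24.9 to 38.9 FPKM at 0 µM and from 23.7 to 45.2 FPKM at 200 µM. In WT leaf it was 28.2 to 38.9 FPKM at 0 µM and 23.7 to 35.2 FPKM at 200 µM.

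PHO1;H2, PHO1;H3 and SHB1 were mainly root transcripts and their levels showed no passing change with Pi. The most abundant, PHO1;H3, had 23.3, 21.6 and 21 FPKM in KO roots at 0 µM, against 21.1, 22.6 and 14.9 FPKM at 200 µM. In OE roots it had 19.3, 25.2 and 22.5 FPKM at 0 µM, against 24.2, 18.7 and 25.4 FPKM at 200 µM, and in WT roots 20.8, 28.8 and 20.4 FPKM at 0 µM, against 20.4, 12.5 and 19.6 FPKM at 200 µM. The groups of the 2 Pi levels overlapped in each genotype, and the lowest value came from the root library with low long genes. Its average change was 0.19 ± 0.12 (adjusted p 0.337, 95% interval -0.07 to 0.45). PHO1;H2 ranged from 1.93 to 6.28 FPKM and SHB1 from 1.29 to 5.65 FPKM in root, with average changes of 0.04 ± 0.18 (adjusted p 0.899) and -0.06 ± 0.17 (adjusted p 0.867). SHB1 had group means of 2.32 FPKM at 0 µM and 3.30 FPKM at 200 µM in KO roots, 2.37 and 3.22 FPKM in OE roots, and 3.76 and 2.25 FPKM in WT roots, with overlapping Pi groups in each genotype. In leaf AT1G14040 reached at most 1.33 FPKM, SHB1 0.86 FPKM and AT2G03260 0.56 FPKM, with medians of 16.5, 9.51 and 3.43 reads per library, and none of the 3 was tested there.

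PHO1;H10, a wound-responsive member, stayed below 1 FPKM in all 36 libraries. It ranged from 0 to 0.95 FPKM in root and from 0 to 0.64 FPKM in leaf, with 1 root and 2 leaf libraries at 0. PHT5;2 was at 0 in 17 of 18 root libraries and in 6 of 18 leaf libraries, and reached 0.06 FPKM in root and 0.42 FPKM in leaf. A count of 0 in 1 library allows up to 3 reads. For this gene these were worth between 0.12 and 0.68 FPKM in root and between 0.11 and 0.21 FPKM in leaf. A single library at 0 therefore does not exclude a level up to its bound, and lower values above 0 did occur. These bounds cover counting error only.

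PHT5;1, the main transporter for Pi storage in the vacuole, had its lowest root values in WT at 200 µM and showed no passing change with Pi. In KO roots it had 48.9, 44.1 and 40.4 FPKM at 0 µM, against 55.1, 45.6 and 41.3 FPKM at 200 µM. In OE roots it had 47.9, 51.4 and 50.1 FPKM at 0 µM, against 48.6, 43.8 and 48.5 FPKM at 200 µM. In WT roots it had 45.4, 49.5 and 57.8 FPKM at 0 µM, against 37.0, 38.5 and 29.7 FPKM at 200 µM. The Pi groups lay apart in WT, as for 19.0% of all genes, and overlapped in KO and OE. The changes were -0.08 ± 0.15 in KO, 0.08 ± 0.15 in OE and 0.53 ± 0.15 in WT (p 0.0029, adjusted p 0.0756). The change in WT passed when replicate 1 at 200 µM was left out (adjusted p 0.043), the replicate of its group with the highest long-gene level. After median-of-ratios scaling the change in WT was 0.38 ± 0.15 (limma, adjusted p 0.179). With the groups fitted alone its adjusted p was 0.396, and with the replicate block 0.114. The response of KO minus that of WT was -0.61 ± 0.22 (p 0.0113, adjusted p 0.332). In leaf it ranged from 13.2 to 23.8 FPKM with a median of 21.8, and the lowest library was WT at 200 µM replicate 2, 1 of those with low long genes. Its average change with Pi in leaf was 0.07 ± 0.11 (adjusted p 0.773, 95% interval -0.17 to 0.31).

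PHT5;3 was almost a leaf transcript, with a median of 18.5 FPKM in leaf and 0.69 FPKM in root. It had 20.0, 23.5 and 16.4 FPKM in KO leaves at 0 µM, against 10.1, 20.1 and 18 FPKM at 200 µM. In OE leaves it had 12.4, 21.9 and 18.3 FPKM at 0 µM, against 20.1, 22.9 and 16.4 FPKM at 200 µM, and in WT leaves 15.8, 20.5 and 18.8 FPKM at 0 µM, against 15.1, 8.85 and 20.5 FPKM at 200 µM. All these groups overlapped, and the values below 13 FPKM came from WT at 200 µM replicate 2 and OE at 0 µM replicate 1, both with low long genes, and from KO at 200 µM replicate 1. The average change was 0.17 ± 0.17 (adjusted p 0.646), and 0.17 ± 0.16 without the low libraries. Of the summed FPKM of the 3 PHT5 genes it held a median of 1.36% in root and 46.8% in leaf.

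Lines against WT at the same Pi level gave no passing member. Of 16 tests in leaf 0 passed and 1 had an unadjusted p under 0.05, and of 24 in root 0 passed and 3 did. Among all genes between 2.60% and 13.7% had an unadjusted p under 0.05 in the 4 leaf comparisons and between 7.13% and 13.1% in the 4 root comparisons, so the members' counts were near the background. KO and OE were set against the same WT libraries. The backgrounds in leaf at 0 µM were 0.0364% of genes for KO and 0.0303% for OE, and at 200 µM 0.873% and 0.382%. In root at 0 µM they were 0.0522% for KO and 0.0678% for OE, and at 200 µM 0.0313% and 0.0417%. The 95% intervals of the 24 root tests lay between -1.12 and 1.03 and those of the 16 leaf tests between -1.61 and 1.43, so differences within these bounds remain possible.

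Groups did not overlap in 5 of the 24 root tests and 3 of the 16 leaf tests. Over all genes they lay apart in root for 18.7% in KO and 14.2% in OE at 0 µM and for 12.2% in KO and 15.5% in OE at 200 µM. In leaf the shares were 9.12% in KO and 8.04% in OE at 0 µM and 14.4% in KO and 17.5% in OE at 200 µM. PHO1 in root at 0 µM had 165, 248 and 163 FPKM in KO and 231, 171 and 214 FPKM in OE, all below the 261, 265 and 254 FPKM in WT, with changes of -0.46 ± 0.19 (p 0.0233, adjusted p 0.335) and -0.35 ± 0.19 (adjusted p 0.746). PHT5;1 in root at 200 µM lay above WT in both lines, by 0.42 ± 0.15 in KO (p 0.0129, adjusted p 0.286) and 0.42 ± 0.15 in OE (p 0.0135, adjusted p 0.302). SHB1 in root at 0 µM was the fifth, at -0.47 ± 0.30 in KO (adjusted p 0.549). In leaf at 200 µM PHO1 was above WT in KO by 0.68 ± 0.29 (p 0.0337, adjusted p 0.316) and in OE by 0.50 ± 0.29 (adjusted p 0.761), and its relative PHO1;H1 was below WT in OE by -0.78 ± 0.39 (adjusted p 0.644). At 200 µM both lines rest on WT groups that each contain 1 library with low long genes.

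**Figure D4:**
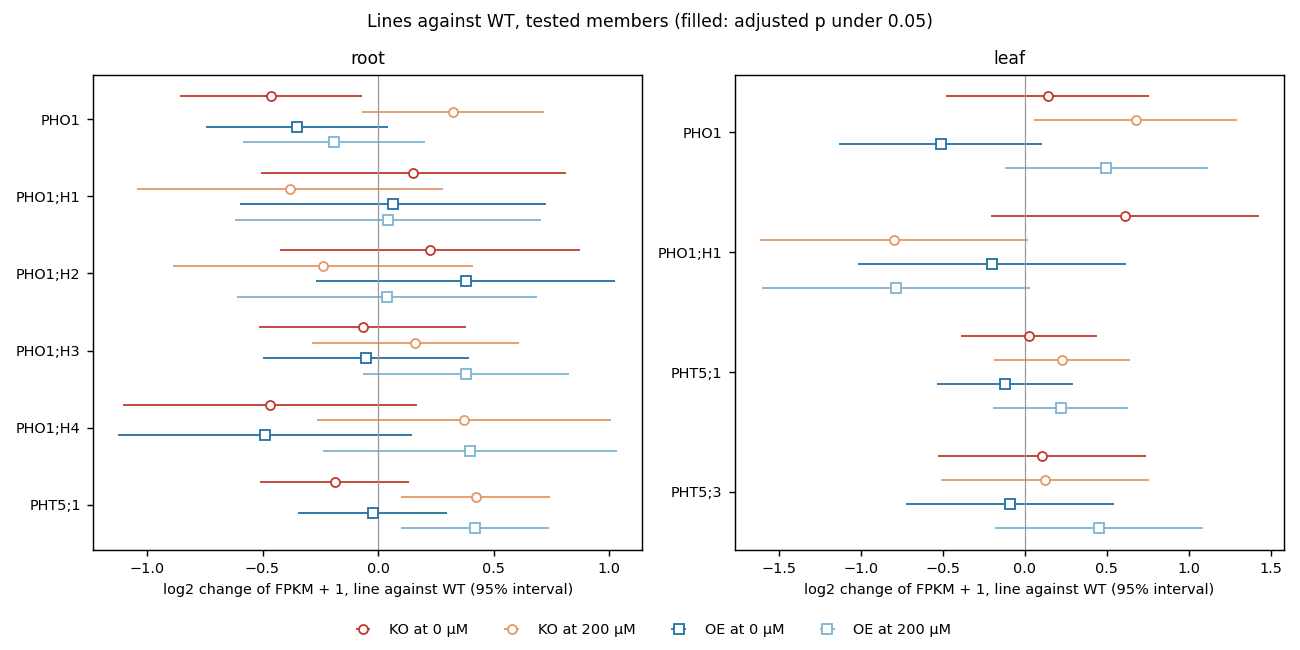
Log2 change of FPKM + 1 of KO and OE against WT at 0 µM and 200 µM (x axis, 95% interval) for the members tested in root (left) and leaf (right). No symbol is filled, since no test passed at an adjusted p under 0.05. Fitted changes lie between -0.49 and 0.42 in root and between -0.80 and 0.68 in leaf.

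Among other genes of the Pi pathway, PHT1 uptake transporters and SPX proteins had passing changes. Over all genes 4.85% passed as higher and 3.82% as lower in root, and 1.5% and 0.546% in leaf. In root 5 of 6 tested PHT1 uptake transporters of 9 listed rose at 0 µM on average, with a median of 1.22 beside 0.09 over all genes. PHT1;4, a high-affinity uptake transporter, had 25.9 ± 6.23 FPKM at 0 µM and 7.46 ± 1.83 FPKM at 200 µM (SD, n = 9 each), a change of 1.66 ± 0.14 (adjusted p 1.17e-06). PHT1;8 rose by 1.89 ± 0.20 (adjusted p 9.54e-06). It averaged 3.73 FPKM at 0 µM and 0.23 FPKM at 200 µM, and PHT1;3, also among the 5, 4.35 and 0.40 FPKM. Both reached the 1 FPKM level through 0 µM alone, so a rise was built into their being tested. In leaf 0 of 2 tested PHT1 genes passed.

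Of the SPX proteins, which bind PHR1 when Pi is ample, 3 of 4 rose in root and 2 of 3 in leaf. SPX3, among the 3 in root, averaged 2.99 FPKM at 0 µM and 0.22 FPKM at 200 µM. It too reached the 1 FPKM level through 0 µM alone. SPX1 had 108 ± 27.8 FPKM at 0 µM and 13.2 ± 3.45 FPKM at 200 µM in root, a change of 2.94 ± 0.16 (adjusted p 4.96e-09). In leaf it had 52.8 ± 28.3 FPKM at 0 µM and 9.69 ± 5.37 FPKM at 200 µM, a change of 2.30 ± 0.21 (adjusted p 4.26e-05). The 9 values at 0 µM and the 9 at 200 µM lay apart in both organs, and the share of all genes for which they do was not computed.

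Of 12 regulators 1 of 11 tested in root rose and 3 fell, and 1 of 9 rose in leaf. The shares over all genes were 4.85% higher and 3.82% lower in root, and 1.5% and 0.546% in leaf. In lists this short a count of 1 is not a result about the list. PHF1, needed to bring PHT1 proteins to the plasma membrane, rose by 1.14 ± 0.11 in root (adjusted p 6.38e-06) and by 0.86 ± 0.16 in leaf (adjusted p 0.00849). In root the transcription factors WRKY45 fell by 1.61 and WRKY75 fell by 1.53. Of the 10 organellar Pi transporters 1 of 9 tested rose in root, PHT2;1 of the plastid envelope, by 0.61 ± 0.15 (adjusted p 0.0159), and 0 of 8 in leaf. None of the 4 mesophyll, 4 epidermis, 3 endodermis and 5 stele markers tested in root passed. In leaf 1 of 5 mesophyll markers passed as higher and 0 of 3 tested stele markers did.

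The genes whose levels followed each member most closely over the 36 libraries, after each organ's mean was taken off, were named by Pearson r of log2(FPKM + 1). All points share library depth and the long-gene shortfall, and these r are descriptions. For PHO1;H1 they were PAP12, a purple acid phosphatase (r = 0.862), SPX1 (0.849) and AT4G23000, annotated as a metallo-phosphoesterase (0.84). For PHO1 the highest were AT3G62010 (0.738), LON2 (0.732) and REV1 (0.728), and for PHT5;1 AT5G08390 (0.752), BGAL8 (0.719) and SPL1 (0.716). PHO1;H3 was closest to AT1G63810 (0.824), AT1G42440 (0.784) and DAR4 (0.783), the first a nucleolar protein. PHO1;H2 was closest to AT3G07900 (0.702), WAKL5 (0.696) and AT4G01240 (0.677), and SHB1 to AT4G07455 (0.706), AT5G43745 (0.667) and AT5G28960 (0.667). PHT5;3 was closest to AT1G61190 (0.763), ATCSLC08 (0.736) and CYP708A3 (0.734). Between members r was at most 0.617, for AT1G68740 with AT1G14040.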

How the data were processed

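Values per gene and library were used as deposited. They are FPKM: multiplied by coding length in kb, the authors' deposited FPKM of a library summed to between 974165 and 1016893, and among low values 100.0% equalled a whole number of reads within 0.1 read, from which depth was derived. The submitters' processing notes name Trimmomatic, HISAT2 2.2.1, DESeq2 and the build TAIR10. Libraries were stranded by dUTP, per the labels' protocols. The assignment of reads to genes and strands was not given in the sources used here, whether by tool or by setting. The authors' ratio of group means (200 µM over 0 µM in WT leaf, otherwise 0 µM over 200 µM, per the file headers) and the authors' adjusted p-value entered no test.

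Genes that averaged 1 FPKM or more in the libraries of a fit entered limma 3.58.1 (R 4.3.3, trend) on log2(FPKM + 1), which understates changes of low genes. Fits had 1 mean per group over the 18 libraries of an organ, or over all 36 for root against leaf. Intervals are 95% and PCR copies were not marked. All libraries carry batch label 1, and p-values measure the spread between these libraries. Members, lists and tests were chosen with earlier results of these data known. Named genes were the 9 members and up to 3 genes per list with the smallest adjusted p in the averaged Pi response. The 3 genes most correlated with each member of at least 1 FPKM were also named. PHO2 was added because it acts on PHO1 protein. Gene models and sequences came from RefSeq on TAIR10.1. Alternatives were another pseudocount (0.1), no filter, median-of-ratios scaling, groups fitted alone, the replicate number as a block, leaving out each library, and leaving out the libraries with low long genes.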

Additional observations from a re-analysis of the deposited data

How the results depend on the processing

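Counts of the 9 members that passed were recomputed for 24 comparisons. With groups fitted alone the count in the Pi response of KO leaf was 0 and that of OE leaf 1, against 1 and 0. Without the libraries with low long genes it was 1 in OE leaf and 2 in the average leaf response, where PHO1 joined PHO1;H1. Leaving out 1 library at a time gave between 1 and 2 members in the average leaf response, between 0 and 2 in WT root and between 0 and 1 in KO root. The other counts stayed within 1.5 times of the reported ones. The causes were not tested. PHO1;H1 in root against leaf, 0.14 after median-of-ratios scaling, was the single call lost under that scaling, and no called change turned its sign.

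Replicate numbers did not pair the libraries in most group pairs. Correlations of same-numbered deviations exceeded 0.1 for every number in 1 of 15 group pairs in leaf and 0 of 15 in root. That pair was OE and WT leaf at 0 µM, with r of 0.723, 0.54 and 0.174 for replicates 1, 2 and 3. Replicate 1 of both groups had low long genes, and the part of this in the correlation was not tested. In all 7 of 18 leaf and 3 of 18 root libraries correlated best with their own number. With the replicate block the same members passed, PHO1;H1 at an adjusted p of 0.00647 in KO leaf and 0.00126 in the average leaf response, and genes passing in WT root numbered 162 against 376.

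Among all genes, counts of passing genes differed by over 1.5 times in 11 of 21 comparisons with groups fitted alone and in 13 of 24 without the low libraries, and this last setting gave 2209 against 337 in the average leaf response, 404 against 182 in KO leaf and 1061 against 676 in KO root. Groups alone gave 80 in KO leaf and 8 against 376 in WT root. Values of PHO1;H10 and PHT5;2 rested on few reads. With no filter both entered root against leaf and passed, at 0.235 (limma, adjusted p 0.0158) and -0.11 (adjusted p 0.00263), so that 9 members passed there against 7.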

Other observations

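The 5 other loci of the PHO1 family on the list, annotated as EXS family proteins in the deposited table, were not all low. AT2G03240 had 16.3 ± 2.80 FPKM in root and 2.91 ± 1.29 FPKM in leaf (SD, n = 18 each), and AT1G26730 4.6 ± 1.37 FPKM in root and 1.58 ± 0.74 FPKM in leaf. AT1G35350 was the one with more in leaf, at 2.02 ± 0.66 FPKM in root and 6.09 ± 3.57 FPKM in leaf, above the leaf mean of PHO1. AT2G03250 was at 0 in all 36 libraries and AT3G29060 in 17 of 18 root and 16 of 18 leaf libraries.

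AT1G35350 had 7.48, 8.58 and 6.13 FPKM in KO leaves at 0 µM, against 0.90, 5.46 and 3.26 FPKM at 200 µM. In OE leaves it had 5.74, 13.7 and 12.9 FPKM at 0 µM, against 1.68, 4.27 and 2.65 FPKM at 200 µM, and in WT leaves 2.40, 7.71 and 8.76 FPKM at 0 µM, against 7.32, 3.32 and 7.31 FPKM at 200 µM. The groups lay apart in KO and OE, as did those of 22.5% and 17.7% of all genes, and overlapped in WT. Its average change in leaf was 0.91 ± 0.28 and did not pass (limma, adjusted p 0.112).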
